A study of Homo sapiens with 16 samples.

Results

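This section describes what happened to gene expression when EPZ5676, an inhibitor of the histone methyltransferase DOT1L, was given to Molm14 cells on top of GSK126, an inhibitor of the histone methyltransferase EZH2. Molm14 is a human acute myeloid leukaemia line with a rearranged KMT2A gene and monocytic features. The comparison uses 8 of the 16 RNA-seq libraries: 4 from cells that received 0.16 uM EPZ5676 and 0.3 uM GSK126 (Combo) and 4 from cells that received 0.3 uM GSK126 alone (iEZH2). The design text gives 7 days of treatment, with medium and compound renewed on day 4. The extraction label instead counts 3 days from a sort that the design text does not mention, so the time of sampling rests on the design text alone. The other 8 libraries, 4 with the solvent DMSO and 4 with 0.16 uM EPZ5676 alone (iDOT1L), give the effect of the same compound without GSK126. All 16 libraries come from 1 cell line in bulk culture, so fewer cells of a state and less RNA per cell cannot be told apart. Of the 22445 gene identifiers in the deposited table, 22331 were tested.

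DOT1L places methyl groups on lysine 79 of histone H3 along transcribed genes. Fusion proteins of KMT2A bring DOT1L to their targets, among them the HOXA genes and MEIS1, which keep leukaemia cells in an immature state. EZH2 is the enzyme of the Polycomb complex PRC2, which places the repressive trimethyl mark on lysine 27 of histone H3. Inhibiting DOT1L in KMT2A-rearranged cells is known to lower the fusion's targets and to raise genes of myeloid maturation. The comparison asks which of these changes EPZ5676 brings to cells that also receive GSK126. Both compounds are listed for the same 7 days, and these libraries do not measure the activity of EZH2.

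The 250 bases before their RefSeq starts (build GRCh38.p14) are shown for SERPINB2, CCR2 and TLR4, which rose, and for the neighbours MYBPH and ADORA1, which fell. Capitals mark a motif on either strand: the AP-1 motif TGANTCA in SERPINB2 and CCR2, the PU.1 motif GAGGAAGT in TLR4 and MYBPH and the EGR motif GCGGGGGCG in ADORA1. The windows are SERPINB2 on chr18:63887455-63887704 (plus strand), CCR2 on chr3:46353861-46354110 (plus strand), TLR4 on chr9:117704153-117704402 (plus strand), MYBPH on chr1:203175827-203176076 (minus strand) and ADORA1 on chr1:203127476-203127725 (plus strand).
SERPINB2: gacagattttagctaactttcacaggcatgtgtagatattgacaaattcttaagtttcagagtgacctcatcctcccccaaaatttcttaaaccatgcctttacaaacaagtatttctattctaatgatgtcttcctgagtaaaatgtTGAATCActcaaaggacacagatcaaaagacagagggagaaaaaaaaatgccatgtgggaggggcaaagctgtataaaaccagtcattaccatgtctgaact
CCR2: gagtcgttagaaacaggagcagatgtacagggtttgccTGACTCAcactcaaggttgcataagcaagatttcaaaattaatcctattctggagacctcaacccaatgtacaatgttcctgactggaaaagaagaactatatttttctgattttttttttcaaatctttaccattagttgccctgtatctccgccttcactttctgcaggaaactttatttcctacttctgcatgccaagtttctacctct
TLR4: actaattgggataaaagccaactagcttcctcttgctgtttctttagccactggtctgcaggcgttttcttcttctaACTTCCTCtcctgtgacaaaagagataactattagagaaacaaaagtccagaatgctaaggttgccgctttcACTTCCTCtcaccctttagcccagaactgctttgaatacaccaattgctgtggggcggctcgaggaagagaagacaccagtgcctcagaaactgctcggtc
MYBPH: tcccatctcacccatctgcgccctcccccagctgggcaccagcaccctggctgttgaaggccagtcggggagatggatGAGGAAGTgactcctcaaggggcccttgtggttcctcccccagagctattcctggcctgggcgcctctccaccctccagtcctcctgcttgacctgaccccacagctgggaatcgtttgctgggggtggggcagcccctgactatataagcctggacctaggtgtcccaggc
ADORA1: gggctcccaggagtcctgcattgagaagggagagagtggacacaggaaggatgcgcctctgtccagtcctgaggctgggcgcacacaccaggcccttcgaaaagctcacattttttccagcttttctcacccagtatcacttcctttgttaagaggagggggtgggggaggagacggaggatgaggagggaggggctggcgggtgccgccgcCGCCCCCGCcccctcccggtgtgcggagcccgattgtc

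Over all 27305 windows of this length, counting the first-listed start of each gene, 6.6% held the AP-1 motif, 2.13% the PU.1 motif and 4.68% the EGR motif. Of the 87 called genes chosen by the naming rule, 65 had a window, 28 of genes that rose and 37 of genes that fell. The AP-1 motif was in 3 of the 28 and 1 of the 37, the PU.1 motif in 2 and 3, and the EGR motif in 1 and 5. Matches are matches of letters only.

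Targets of the KMT2A fusion were among the genes that fell when EPZ5676 was added to GSK126, and genes of monocytes and granulocytes were among those that rose. In all, 850 genes (3.81% of those tested) were called at an adjusted p under 0.05 in a limma fit on log2(normalised count + 1). Of these, 465 (2.08%) were higher and 385 (1.72%) lower in Combo than in iEZH2. The share of 54.7% higher became 66.3% under upper quartile scaling and 45.2% with the replicate number as a block. A change of at least 2-fold was seen for 303 genes, 193 higher and 110 lower. The median log2 fold change was 0.89 among called genes that were higher, -0.72 among those that were lower and -0.0008 over all genes. For 752 of the 850 the 4 Combo samples lay wholly above or below the 4 iEZH2 samples. The 850 were called on these same samples, so such separation follows largely from the calls and is no further evidence for them. How the replicates were made is not stated in the labels, so the spread behind each p may be technical.

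The libraries held an estimated 20.6 M to 27.2 M reads, and their pairwise correlations ran from 0.967 to 0.981. On the first principal component (32.2% of the variance over 12993 genes) the iEZH2 samples 1 to 4 lay at -18.95, -10.37, -6.84 and 9.75, and the Combo samples between 22.58 and 29.59. The library iEZH2 4 thus stood apart from the rest of its group, on the side of Combo. Among the 687 genes called higher with iDOT1L against DMSO, whose fold changes use no iEZH2 or Combo sample (the spread in the test comes from all 16 libraries), iEZH2 4 was the highest iEZH2 library for 484 (70.5%), and among the 709 called lower it was the lowest for 451 (63.6%). The median log2 difference of the 687 genes from the DMSO mean was 0.158, 0.06, 0.077 and 0.508 in iEZH2 1 to 4 and 0.743 to 0.826 in Combo. Without iEZH2 4, 1349 genes were called, 821 of the 850 among them, and the median log2 fold change of the original calls was 1.00 for genes that were higher and -0.81 for those that were lower. Of 12 identity genes of a monocytic leukaemia line, 11 stood at 116.8 normalised counts or more in all 8 samples (CD33 at 716.7 to 973.6, SPI1 at 2145 to 2956), and FCER1G stood at 7.491 to 12.93. The B cell marker MS4A1 stayed at 0 to 4.611, while PAX5 and NKG7, usually lymphoid, were expressed at 430.2 to 1282 and 255.9 to 686.9. The keratin genes KRT18 and KRT8, usually epithelial, were at 517.4 to 982.3 and 216.6 to 328.9, and the collagen gene COL1A1 at 61.06 to 235.4.

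**Figure D1:**
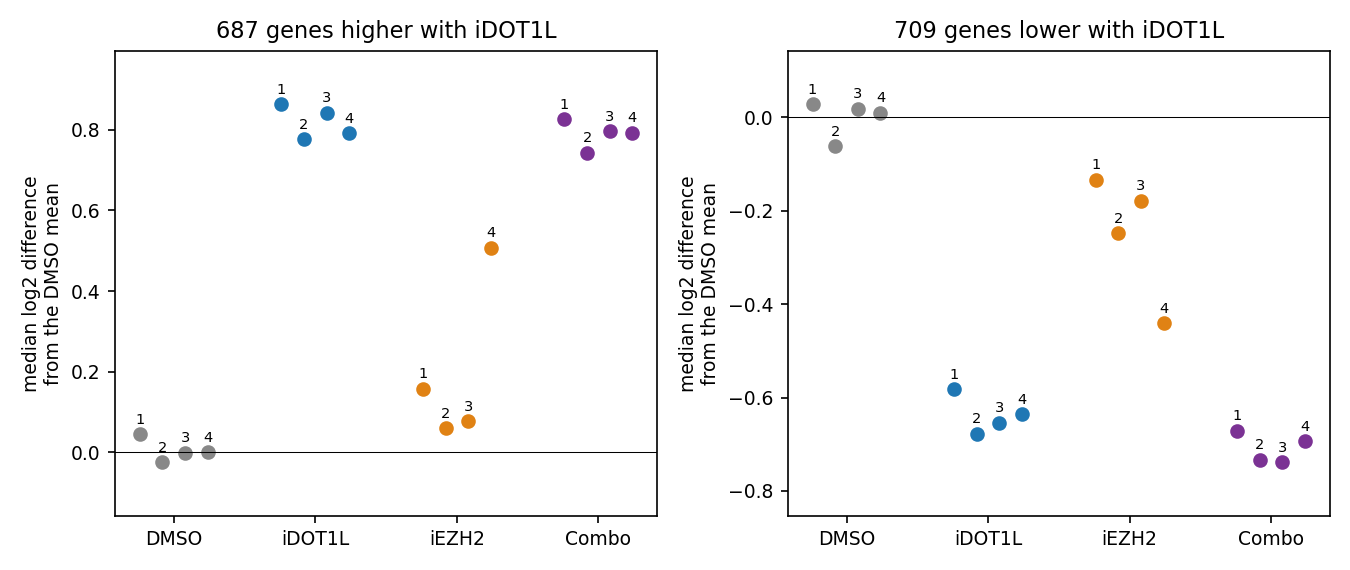
Median log2 difference from the DMSO mean (y axis) in each of the 16 libraries (points, numbered by replicate) for the 687 genes called higher (left) and the 709 called lower (right) with iDOT1L against DMSO. The fold changes behind these calls use only the DMSO and iDOT1L libraries, and their spread all 16; among iEZH2 libraries, replicate 4 (0.508 on the left) lies nearest to Combo.

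Many targets of the KMT2A fusion and genes of the HOXA programme fell. Of 30 such genes, all tested, 16 fell and 0 rose, against 1.72% of all genes that fell, and the list's median log2 fold change was -0.57 against -0.0008 over all genes. Leaving out 1 library at a time gave 12 (without iEZH2 1) to 18 falls (without iEZH2 4). Coordinates are those of GENCODE 29 on GRCh38. MEIS1 (chr2:66433452-66573869), a homeodomain partner of HOXA9, stood at 1793, 1399, 1634 and 1098 normalised counts in iEZH2 1 to 4 and at 738.1, 684.4, 668.3 and 797.1 in Combo 1 to 4. Every Combo sample lay below every iEZH2 sample, and the log2 fold change was -1.01 (SE 0.13, adjusted p = 0.000159). PBX3 (chr9:125747345-125967377), another cofactor of HOX proteins, went from 2794, 2093, 2285 and 1823 to 1435, 1052, 990 and 1207, a log2 fold change of -0.94 (SE 0.14, adjusted p = 0.000534).

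MEF2C (chr5:88717117-88904257), a transcription factor of self-renewal in this leukaemia, was at 6176, 4799, 4288 and 3049 in iEZH2 and at 1924, 1512, 1776 and 1769 in Combo. Its highest Combo sample lay below its lowest iEZH2 sample, and its log2 fold change was -1.35 (SE 0.17, adjusted p = 0.000166). HMGA2 (chr12:65824131-65966295), an architectural chromatin protein of immature cells, went from 900.4, 592, 830.2 and 492 to 302.8, 271.5, 228.5 and 252.7, a log2 fold change of -1.38 (SE 0.16, adjusted p = 5.57e-05). IGF2BP2, an RNA-binding protein, fell from a mean of 2997 to 1818 (log2 fold change -0.71, SE 0.11). In all 3 genes iEZH2 4 was the lowest iEZH2 library. Without it the log2 fold changes were -1.53 for MEF2C, -1.53 for HMGA2 and -0.82 for IGF2BP2.

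FLT3, the receptor kinase of early progenitors, read 6169, 5399, 5441 and 4104 in iEZH2 and 3988, 3289, 3339 and 3240 in Combo, with no overlap (log2 fold change -0.60, SE 0.14, adjusted p = 0.0165). Each call was also checked in 8 fits that left out 1 of the 8 libraries (leave-one-out fits), and 54 of the 96 called members of the 40 gene lists kept their call in all 8. The call of FLT3 was lost without iEZH2 1, iEZH2 3, Combo 3 or Combo 4, with adjusted p up to 0.0695. Other members that fell were JMJD1C (-0.66), ZNF521 (-0.68), CPEB2 (-0.66), SATB1 (-0.54) and RUNX2 (-0.44), of which SATB1 lost its call in 6 of the 8 fits with 1 library left out.

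Within the HOXA cluster, 5 of 11 genes fell. HOXA3 went from a mean of 356.3 to 167.6 normalised counts (log2 fold change -1.07), HOXA5 from 274.9 to 148.8 (-0.85), HOXA6 from 116.6 to 50.77 (-1.11), HOXA11 from 1014 to 731.8 (-0.46) and HOXA13 from 1964 to 1335 (-0.54). HOXA9 and HOXA10, central to the leukaemic programme, did not pass the test. Both passed, as did CDK6, in an alternative fit with the replicate number as a block. HOXA9 read 1783, 1634, 1758 and 1549 in iEZH2 and 1636, 1252, 1422 and 1346 in Combo (log2 fold change -0.25, 95% interval -0.44 to -0.065, adjusted p = 0.146), and HOXA10 gave -0.31 (interval -0.54 to -0.086, adjusted p = 0.134). They share 24.3% and 24.5% of their 31-base words with other transcripts, among which the authors' counting could divide reads. Without iEZH2 4 the adjusted p of HOXA10 was 0.0262 and that of HOXA9 0.0901. HOXA6 and HOXA11 lost their calls in 2 and 6 of the 8 fits with 1 library left out. CDK6, a cell-cycle kinase and fusion target, gave -0.66 (interval -1.10 to -0.22, adjusted p = 0.101), and its samples overlapped, with Combo 2 at 7361 and the other Combo libraries at 4764 to 4938; without iEZH2 4 the value was -0.86 (adjusted p = 0.00835). The 9 tested HOXB genes held 0 calls in the limma fit, with 1 at an unadjusted p under 0.05.

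**Figure D2:**
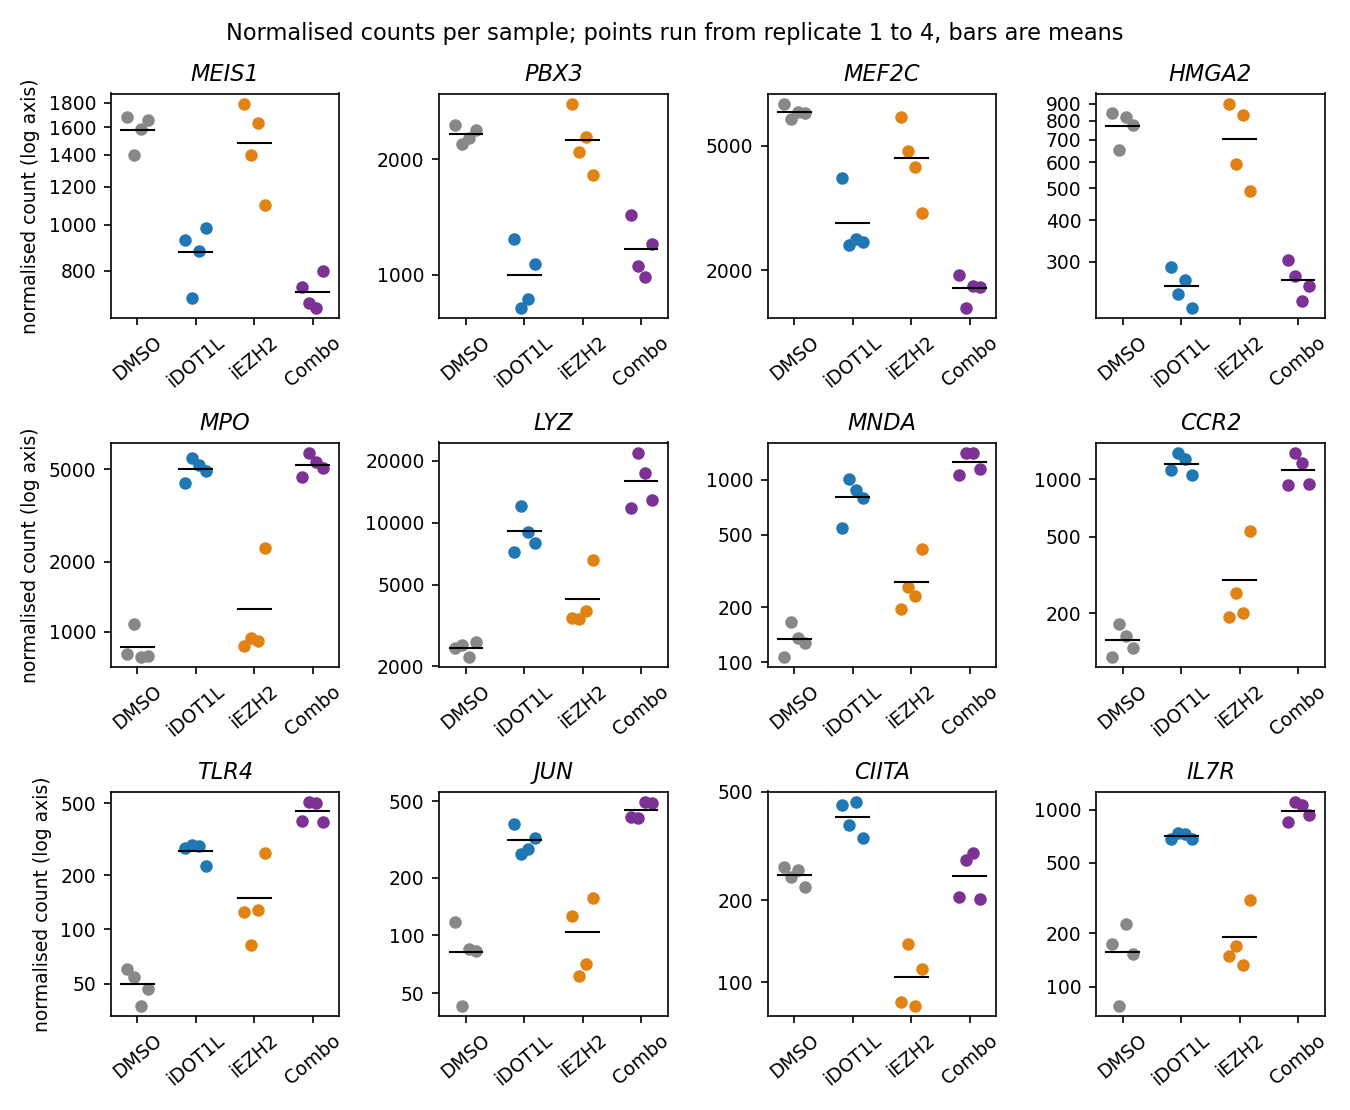
Normalised counts (log y axis) of 12 genes in each of the 16 libraries (points, replicate 1 to 4 from left to right; horizontal bars are group means). MEIS1, PBX3, MEF2C and HMGA2 are lower in all 4 Combo than in all 4 iEZH2 samples, and the other 8 genes are higher; iEZH2 4 is the iEZH2 sample nearest to Combo for MPO (2288) and LYZ (6541).

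Some genes of granule proteins and some monocyte markers rose. Of 19 tested granule protein genes, 5 rose and 0 fell, and of 49 tested monocyte and macrophage markers 9 rose and 1 fell, beside 2.08% of all genes that rose. The list medians were 0.32 and 0.43. Without iEZH2 4 the second list held 15 rises and 0 falls, and over the other 7 libraries left out in turn it held 8 or 9 rises. MPO (chr17:58269856-58280935), the peroxidase of primary granules, read 871.7, 941.1, 913.1 and 2288 in iEZH2 and 4627, 5901, 5364 and 5055 in Combo. The lowest Combo sample lay above the highest iEZH2 sample, iEZH2 4, and the log2 fold change was 2.19 (SE 0.23, adjusted p = 4.66e-05), or 2.52 without iEZH2 4. LYZ (lysozyme) read 3438, 3418, 3698 and 6541 against 11730, 21830, 17380 and 12890 (log2 fold change 1.91, SE 0.22), with 39.3% of its words shared with other transcripts, mostly AC020656.1.

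The other granule genes that rose were BPI, a bactericidal protein (mean 149 to 275.8, log2 fold change 0.92), CST7, an inhibitor of lysosomal proteases (546 to 986.1, 0.86), and CFD, complement factor D (4743 to 5908, 0.32), the last losing its call in 6 of 8 leave-one-out fits. ELANE, the neutrophil elastase, was not called (log2 fold change -0.19, interval -0.47 to 0.10). Its samples overlapped, at 8287 to 12620 in iEZH2 and 8291 to 9441 in Combo, while those of MPO and LYZ did not.

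Among the monocyte markers, CCR2, the receptor for the chemokine CCL2, read 192.3, 255.3, 200.8 and 539 in iEZH2 and 926.1, 1369, 1216 and 936.8 in Combo (log2 fold change 2.02, SE 0.25, adjusted p = 0.000134). MNDA, a nuclear antigen of myeloid cells, read 195.4, 258.1, 230.2 and 419.5 against 1058, 1400, 1408 and 1143 (2.23, SE 0.21, adjusted p = 1.36e-05). TLR4, the lipopolysaccharide receptor whose promoter window holds the PU.1 motif at 2 places, read 125, 82.38, 127.8 and 265.3 against 398.7, 508.4, 501.3 and 393.3 (1.70, SE 0.25, adjusted p = 0.000403). In each of the 3 genes iEZH2 4 was the highest iEZH2 library and still below all Combo samples. Without it the log2 fold changes were 2.35, 2.45 and 2.02.

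The other markers that rose were CD36, a scavenger receptor (1194 to 2853, log2 fold change 1.33), TLR2 (490.3 to 919.1, 0.93), MS4A6A (321.9 to 603, 0.93), AIF1 (360 to 624.7, 0.80), CX3CR1 (505.7 to 833.8, 0.75) and the lectin CLEC12A (26.75 to 187.3, 2.95). CX3CR1 alone of these lost its call in leave-one-out fits, in 4 of 8. Not every marker of maturation moved that way. The integrin ITGAX fell (138.2 to 63.69, -1.09, call lost in 6 of 8 such fits). ITGAM, the CD11b chain, gave -1.01 (interval -1.73 to -0.30, adjusted p = 0.126), with 834.7, 229.9, 453.7 and 407.2 in iEZH2 and 251.1, 153.7, 215.8 and 254.5 in Combo. CD14, the classical monocyte marker, stayed at or below 8.902 normalised counts in all 8 samples.

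Of 21 transcription factors of the myeloid lineage, 3 rose and 0 fell, beside 2.08% and 1.72% of all genes. CEBPD (chr8:47736909-47739086), a factor of granulocyte and monocyte maturation, read 420.2, 497.3, 444.8 and 564.1 in iEZH2 and 1100, 971.6, 1110 and 1026 in Combo, with no overlap between the groups (log2 fold change 1.13, SE 0.10, adjusted p = 7.14e-06). NFE2 rose from a mean of 1339 to 1991 (0.58) and KLF4 from 208.1 to 303.5 (0.57), KLF4 losing its call in 7 of 8 leave-one-out fits. SPI1, which encodes PU.1, gave 0.21 (interval 0.046 to 0.38, adjusted p = 0.174), CEBPA 0.055 (interval -0.093 to 0.20) and IRF8 -0.23 (interval -0.41 to -0.056, adjusted p = 0.158). CEBPA shares 39.8% of its words with other transcripts.

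Receptors and kinases that carry outside signals were called in both directions. Of 28 cytokine and growth factor receptor genes, 3 rose and 1, FLT3, fell, beside 2.08% and 1.72% of all genes; without iEZH2 4 the counts were 7 and 1. IL7R, the interleukin 7 receptor chain, read 149.5, 170.4, 133 and 307.8 in iEZH2 and 855.4, 1107, 1058 and 928.8 in Combo (log2 fold change 2.44, SE 0.27, adjusted p = 4.38e-05). IL17RA rose from a mean of 3571 to 5449 (0.62) and CSF2RB, the common beta chain of the GM-CSF receptor, from 178.1 to 268.4 (0.59). All 3 had every Combo sample above every iEZH2 sample. Among 20 Src-family, SYK and BTK kinases and adaptors, FYN rose (171.6 to 553, 1.72) while TEC (259.9 to 150, -0.79) and YES1 (636.1 to 420.7, -0.59) fell. Of 12 leukocyte integrins, ITGB7 rose (343.5 to 630.1, 0.94), and ITGAX and ITGAL (6160 to 4647, -0.40) fell, the last losing its call in 7 of 8 leave-one-out fits. ITGB7 shares 36% of its words with ZNF740. Of 21 Toll-like and C-type lectin receptor genes, TLR2, TLR4 and the platelet lectin CLEC1B (2.949 to 18.8, 2.50) rose.

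Among markers of other blood lineages, the lymphoid list held the most calls, 23.8% of its tested genes beside 3.81% of all genes. Of 21 stem and progenitor markers 2 fell, CD38 and ID1, an inhibitor of differentiation factors (61.34 to 28.56, -1.08, lost in 5 of 8 leave-one-out fits). Of 21 tested lymphoid markers 3 rose and 2 fell: beside IL7R, the B cell receptor component CD79A (25.45 to 62.22, 1.23) and the surrogate light chain gene IGLL1 (1.595 to 10.85, 2.48) rose, both losing their call without iEZH2 3 (adjusted p = 0.0514 and 0.0512), and PAX5 (984 to 551, -0.84) and NCAM1 (3534 to 2656, -0.41) fell, losing theirs in 5 and 6 of 8 fits. IGLL1 shares 20.4% of its words with other transcripts. NFE2 was the 1 called of 14 erythroid and megakaryocyte markers. The 10 mast cell, basophil and eosinophil markers held 0 calls in the limma fit and 0 at an unadjusted p under 0.05.

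JUN, the central AP-1 subunit, rose while the early growth response factor EGR1 fell. JUN (chr1:58780788-58784327) read 126.8, 61.21, 70.95 and 155.9 in iEZH2 and 411.7, 411, 497.5 and 487.7 in Combo (log2 fold change 2.21, SE 0.28, adjusted p = 0.000159). EGR1 read 56.25, 57.87, 80.33 and 21.6 against 11.43, 20.55, 18.82 and 11.73, a difference of -1.63 (SE 0.41, adjusted p = 0.0295) whose call was lost in 6 of 8 leave-one-out fits, with adjusted p up to 0.115. Of the 23 immediate early and AP-1 genes, the other to be called was the survival factor MCL1 (5727 to 4712, -0.28, lost in 5 of 8), and JUNB was not called (-0.22, interval -0.43 to -0.0065). Of 17 feedback genes of the RAS-MAPK pathway, DUSP5 rose (138.5 to 199.8, 0.52) and the cyclin CCND1 fell (266.4 to 131.2, -1.06), each losing its call in 4 of 8 fits. Calls made up 11.8% of that list and 13% of the immediate early list, beside 3.81% of all genes. DUSP6, which shares 38.5% of its words, was not called (-0.30, interval -0.65 to 0.054).

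Of 13 tested genes of MHC class II presentation, 3 rose and 0 fell, beside 2.08% and 1.72% of all genes, and the same counts were found in each of the 8 leave-one-out fits. CIITA (chr16:10866222-10943021), the coactivator that switches these genes on, read 84.79, 138.2, 81.89 and 112 in iEZH2 and 205.8, 281.1, 297.4 and 202 in Combo (log2 fold change 1.25, SE 0.17, adjusted p = 0.000263). The Combo samples of CIITA overlapped those of DMSO, where it read 222.8 to 265.1. CIITA is uncertain, with 26.2% of its words shared with other transcripts. CD74, the invariant chain, rose from a mean of 2813 to 4375 (0.66) and HLA-DQB1 from 28.06 to 89.48 (1.71). In the class I list of 17 genes, NLRC5, the coactivator of class I genes, was the 1 called (1235 to 1787, 0.53, lost in 3 of 8 leave-one-out fits). Of 47 interferon-stimulated genes, 1 rose and 5 fell, beside the same 2.08% and 1.72% of all genes, with 2 to 6 falls over the leave-one-out fits. TRIM22 rose (1301 to 1864, 0.51), and PARP14 (-0.57), PARP9 (-0.49), IFI35 (-0.45), IRF1 (-0.48) and OAS3 (-1.08) fell; of the 6, PARP14 and PARP9 kept their calls in all 8 leave-one-out fits.

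**Figure D3:**
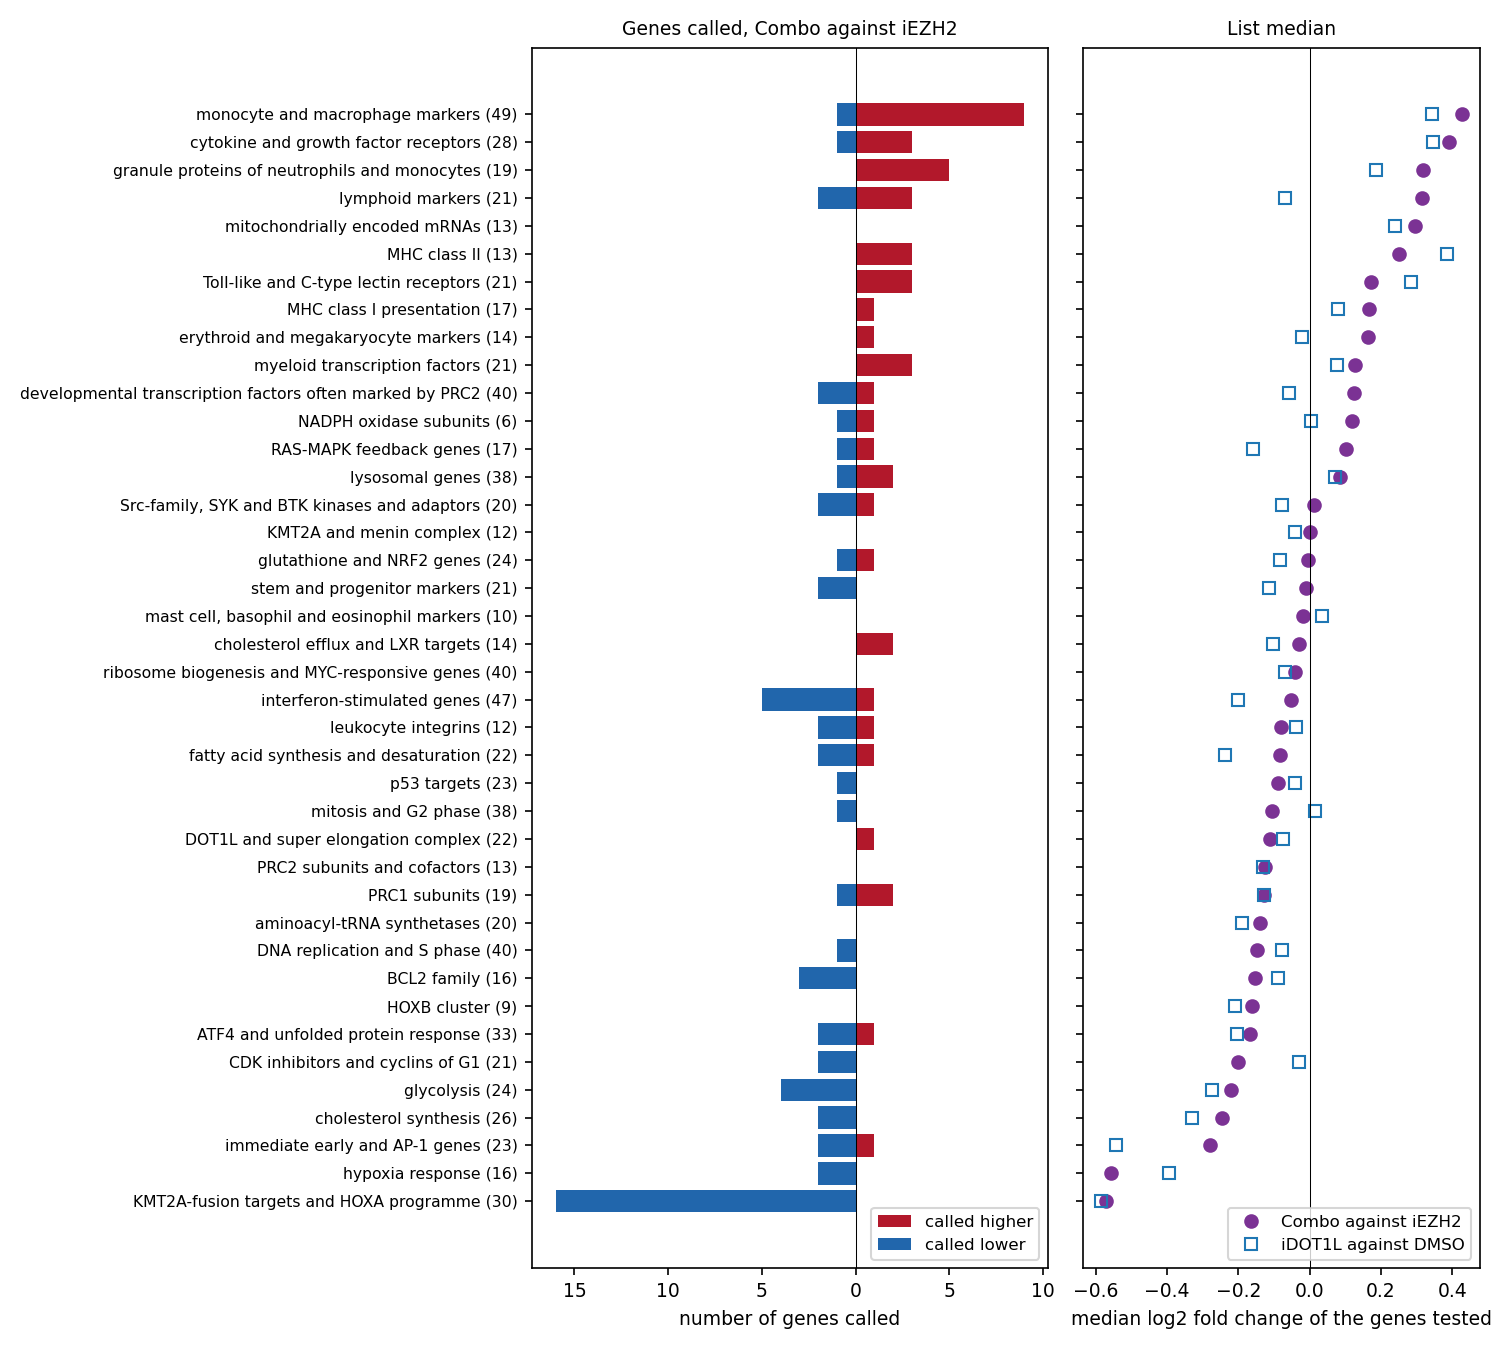
For each of the 40 gene lists (number of tested genes in brackets), the genes called higher or lower in Combo than in iEZH2 (left, bars) and the median log2 fold change of all tested members in both comparisons (right, points). The list of KMT2A-fusion targets has the most falls (16) and the monocyte and macrophage markers the most rises (9).

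The largest rises were in genes that were low in iEZH2, with group means of 26.75 normalised counts or less. CYTL1, a small secreted protein first found in CD34-positive cells, read 0, 0.9187, 0 and 2.324 in iEZH2 and 35.52, 66.73, 36.71 and 36.69 in Combo. These stand for about 3 against 175 reads, a ratio of 61.6 with a 95% counting interval of 20.7 to 302 (adjusted p = 9.77e-06). NME8, a thioredoxin-domain protein of cilia, read 0.6887, 0, 0.4911 and 1.357 against 8.252, 25.56, 41.62 and 42.72, about 3 against 122 reads and a ratio of 43 (interval 14.4 to 211, adjusted p = 3.67e-05). Both intervals take estimated reads summed over 4 libraries as independent molecules and cover counting error only. GPR141, an orphan receptor gene on chr7 as is NME8, read 12.19, 0, 2.116 and 16.3 against 52.16, 47.3, 64.43 and 57.87 (log2 fold change 3.44, SE 0.69). All 3 genes had every Combo sample above every iEZH2 sample.

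SERPINB2 (chr18:63871692-63903890), a plasminogen activator inhibitor of activated monocytes, read 10.7, 0, 6.596 and 29.01 in iEZH2 and 119.1, 119.1, 128.5 and 97.56 in Combo (log2 fold change 4.02, SE 0.71, adjusted p = 0.00249). Its neighbour SERPINB10 read 5.502, 9.634, 10.68 and 24.39 against 128.7, 129.2, 156.1 and 102.9 (3.43, SE 0.36, adjusted p = 2.44e-05). The annotated gene bodies overlap and 19.2% of the words of SERPINB10 recur in SERPINB2, so their reads cannot be fully told apart. Another group of neighbours was CLEC12A (chr12:9951316-9995694), CLEC1B and CLEC12B, lectin receptor genes at log2 fold changes of 2.95, 2.50 and 3.37. Another was LUM, which encodes the matrix protein lumican (8.111, 6.736, 4.655 and 18 against 92.11, 57.47, 62.95 and 64.83, 2.89), with DCN, the decorin gene, at 1.73 and 28652 bases away. The transcription factor genes NR2F2 (log2 fold change 3.02, SE 0.49) and BHLHE22 (3.42, SE 0.62) and the potassium channel gene KCNF1 (2.87, SE 0.66) completed the group, KCNF1 losing its call in 3 of 8 leave-one-out fits. BLOC1S5-TXNDC5, a read-through gene, had the highest fitted value (5.73), but 99.1% of its words recur in other genes and it is uncertain.

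Among called coding genes the largest fitted fall was that of AGXT, a peroxisomal aminotransferase. It varied widely, at 1204, 130.5, 567.4 and 383.3 in iEZH2 and 93.67, 5.992, 12.06 and 44.32 in Combo (log2 fold change -4.11, SE 0.83, adjusted p = 0.0131), and its call was lost without Combo 3. CD38 (chr4:15778275-15853230), an ectoenzyme and surface antigen, read 242.8, 661.2, 359.6 and 135.8 against 52.84, 81.33, 71.86 and 50.58 (-2.23, SE 0.38, adjusted p = 0.00237). NCF1, a cytosolic subunit of the NADPH oxidase, read 2266, 794.5, 1503 and 1049 against 432.4, 155.9, 215 and 202.6 (-2.47, SE 0.36), with 49.5% of its words shared, mostly with the pseudogene NCF1B. The membrane subunit of the same enzyme, CYBB, rose (114.2 to 331.3, 1.55). The 6 oxidase genes thus held 1 rise and 1 fall, beside 2.08% and 1.72% of all genes.

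MYBPH (chr1:203167811-203175813), a myosin-binding protein, read 1001, 795.2, 935.2 and 494.4 in iEZH2 and 207.7, 189, 192.8 and 171.2 in Combo, the lowest p of all genes with that of CEBPD (log2 fold change -2.03, SE 0.17, adjusted p = 7.14e-06). ADORA1, the adenosine A1 receptor, ends 405 bases from it on the other strand and read 30.65, 28.33, 36.97 and 42.53 against 12.23, 5.027, 3.756 and 17.68 (-1.94, SE 0.41). MYO6, an unconventional myosin, and IMPG1, a retinal matrix proteoglycan, form another such pair, 1577 bases apart on chr6, at -1.80 (SE 0.19) and -2.75 (SE 0.48). The other large falls were ALDH1A3, a retinaldehyde dehydrogenase (mean 920.6 to 234.3, -1.93), ADSS1, a purine synthesis enzyme (-1.82), TTC28 (-1.75), the transcription factor SP9 (947.7 to 270.6, -1.75) and ANXA2R (-1.74). ALDH1A3 and SP9 share 26.1% and 62.2% of their words with other transcripts.

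Some other pairs of neighbouring genes were also both called. Among 13755 adjacent pairs of coding genes within 100 kb of each other, 1068 pairs held a called gene and 65 held 2. In 59 of the 65 both moved the same way, 37 pairs higher and 22 lower, and in 6 they moved apart. Overlapping annotation can put the reads of 1 gene on both. Whether these counts exceed what the call rate and the general sign agreement of neighbours would give was not tested.

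**Figure D4:**
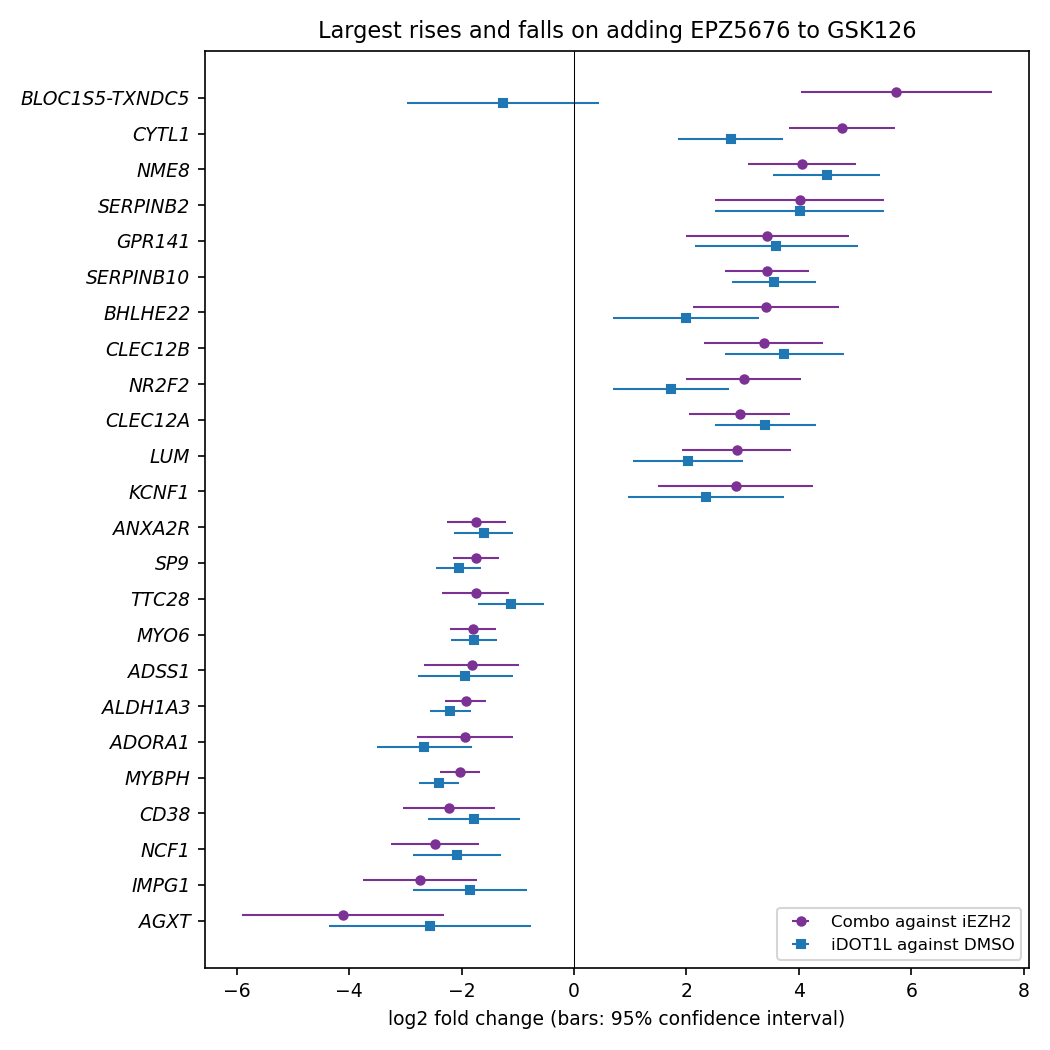
Log2 fold changes (points) with 95% confidence intervals (bars) of the 12 largest rises and 12 largest falls in Combo against iEZH2 among coding genes with a mean of at least 20, beside the same genes in iDOT1L against DMSO. BLOC1S5-TXNDC5, whose reads are uncertain, has opposite signs (5.73 against -1.27), and the other 23 genes have the same sign in both comparisons, from 4.77 (CYTL1) to -4.11 (AGXT) in Combo against iEZH2.

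Most glycolysis, hypoxia response and cholesterol synthesis genes had estimates below 0, and a minority of them passed the test. Of 24 glycolysis genes 4 fell and 0 rose, with 20 estimates below 0 and a median of -0.22: LDHA, lactate dehydrogenase (mean 24950 to 17640, log2 fold change -0.50), SLC16A3, a lactate exporter (4639 to 3447, -0.43), PFKL (7400 to 6107, -0.28) and ENO1 (51820 to 43100, -0.27). LDHA kept its call in all 8 leave-one-out fits, and the list's falls ranged from 1 to 6 over them and stood at 1 under upper quartile scaling. Over all genes 1.72% fell. Of 16 hypoxia response genes, EGLN1, an oxygen sensor (3690 to 1899, -0.92), and DDIT4, an inhibitor of mTOR signalling (23390 to 9224, -1.38), fell, DDIT4 losing its call in 5 of 8 fits. In that list 14 estimates were below 0, with a median of -0.56. In the cholesterol synthesis list of 26 genes, 24 estimates were below 0, and DHCR7, a reductase of the last steps of the pathway, fell (1857, 1370, 1412 and 1310 against 1020, 947.4, 926 and 881.1, -0.64, SE 0.11, adjusted p = 0.00115). INSIG1, a sterol-responsive regulator of the pathway (-0.46, interval -0.92 to -0.009), did not pass the test. With the replicate number as a block 14 of the 26 cholesterol synthesis genes fell. The fatty acid desaturase SCD fell (27250 to 15870, -0.75).

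SLC7A11, the cystine importer, rose (1221 to 2532, 1.06, lost in 3 of 8 fits), and the unfolded protein response factor XBP1 fell, at 4775, 6164, 5602 and 3187 in iEZH2 against 3276, 2974, 2688 and 2866 in Combo (-0.70, SE 0.14, adjusted p = 0.00486). The XBP1 samples overlapped through iEZH2 4, without which the value was -0.90. In the cholesterol efflux list ABCA1, a lipid exporter (0.82), and SMPDL3A (0.96) rose, and in the lysosomal list ASAH1 (0.39) rose and TFEB, a regulator of that list, fell (-0.43). ABCA1 and TFEB each lost their call in 4 of 8 fits.

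A few survival and cell-cycle genes fell. In the main limma fit the falls in the replication and mitosis lists were near the share over all genes, and their number depended on the fit. In the BCL2 family 3 of 16 genes fell, beside 1.72% of all genes: BCL2A1, an anti-apoptotic member (61.61, 32.54, 49.66 and 35.46 against 18.42, 9.037, 16.37 and 13.38, -1.58, SE 0.27, adjusted p = 0.00139), the pro-apoptotic BCL2L11 (1809 to 1281, -0.48, lost in 4 of 8) and MCL1. BCL2 itself gave 0.13 (interval -0.14 to 0.39). CDKN1A, the p21 cell-cycle inhibitor, fell (4664, 3893, 4517 and 4348 against 3600, 3160, 3250 and 3308, -0.39, SE 0.088, adjusted p = 0.0147), a call lost in 3 of 8 fits and under quantile and upper quartile scaling. With CCND1 it was 1 of 2 that fell among 21 CDK inhibitor and G1 cyclin genes. In that list 0 fell without iEZH2 1 or without Combo 3, and 6 fell with the replicate number as a block or with sample weights. Of 40 DNA replication genes 1 (2.5%), TK1, fell, a call lost in 4 of 8 fits, beside 1.72% of all genes. Among the 40, 38 estimates were below 0, with a median of -0.15. With the replicate number as a block 10 of the 40 fell, where 1170 of all 22331 genes fell. Sample weights gave 5 falls in the 40, where 687 of all genes fell. Of 38 mitosis genes 1 (2.63%), BUB3, fell (median -0.11), or 3 with the block. MYC gave 0.061 (interval -0.16 to 0.28) and MYB 0.12 (interval -0.061 to 0.31), and the 40 ribosome biogenesis genes held 0 calls, with 1 at an unadjusted p under 0.05 in the limma fit.

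The genes of the targeted enzymes were not called. DOT1L read 5928, 6458, 5992 and 6087 in iEZH2 and 4235, 6650, 6412 and 6328 in Combo (log2 fold change -0.072, interval -0.32 to 0.17), and EZH2 gave -0.16 (interval -0.41 to 0.10). Both compounds act on enzyme activity, so these transcripts do not check the labels. The 13 PRC2 genes and the 12 genes of the KMT2A and menin complex held 0 calls in the limma fit, each list with 1 gene at an unadjusted p under 0.05. In the list of DOT1L and the super elongation complex 1 of 22, AFF3, rose (1235 to 1990, 0.68, lost in 6 of 8 fits). Calls made up 4.55% of that list, 15.8% of the PRC1 list and 7.5% of the developmental list below, beside 3.81% of all genes. Of 19 PRC1 genes, CBX6 (0.42) and PCGF2 (1.26) rose and BMI1 (-0.34) fell, and all 3 lost their calls in at least 2 of 8 fits. PCGF2 and BMI1 are uncertain, with 43.4% and 22.1% of their words shared, mostly with CISD3 and COMMD3-BMI1. Among 40 tested developmental transcription factors of the kind that PRC2 marks, POU4F1 rose (0.40, lost in 6 of 8), PAX5 fell (-0.84, lost in 5 of 8) and DLX5 fell (1029, 847.4, 1046 and 607.6 against 369.2, 282.4, 312.3 and 367.9, -1.38, SE 0.15, adjusted p = 3.43e-05). PAX6 was not called (-0.29, interval -0.63 to 0.060). POU4F1 and PAX6 share 27.2% and 24.8% of their words with other transcripts.

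Most genes called with EPZ5676 on its own had estimates of the same sign when it was added to GSK126, and 44.8% were called there too. Without GSK126, iDOT1L against DMSO called 1396 genes (6.25%), or 2729 with the replicate number as a block. Of the 1396, 626 were among the 850 of Combo against iEZH2, which is 73.6% of the 850 and 44.8% of the 1396. Of the 626, 625 moved the same way. These shares come from the fit without a block and were not counted with it. The 2 comparisons share no sample, but the fit gives them 1 estimate of the spread. Across 12993 genes whose log2 values averaged 5 or more, 75% had the same sign and the log2 fold changes correlated at 0.773, a description across genes, which are not independent replicates. Of 687 genes called higher with iDOT1L, 669 (97.4%) were also higher in Combo than in iEZH2, with a median of 0.57 against 0.81, and of 709 called lower 683 (96.3%) were lower, with -0.43 against -0.65. Choosing genes by their iDOT1L calls favours large values in that comparison. For the 465 genes chosen by their rise in Combo the medians were 0.89 against 0.76.

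**Figure D5:**
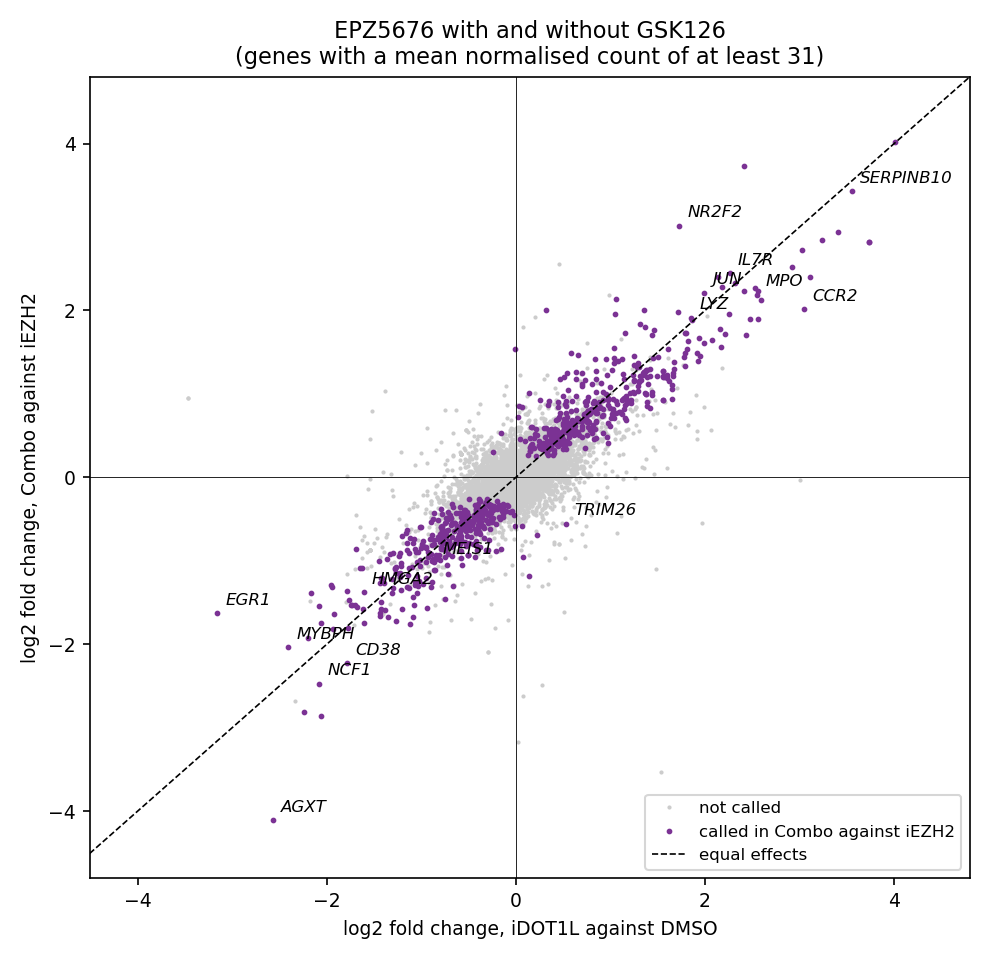
Log2 fold change in Combo against iEZH2 (y axis) plotted on that in iDOT1L against DMSO (x axis) for 13152 genes with a mean normalised count of at least 31; purple points are the 767 called in Combo against iEZH2, and the dashed line marks equal effects. Of the 850 called genes, 829 have the same sign in both comparisons, and TRIM26 is among the exceptions.

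No gene passed the test of the difference between the 2 effects in the limma fit, where the lowest adjusted p was 0.0895. An unadjusted p under 0.05 was found for 848 genes, 3.8% of those tested, which is no more than chance gives at that cut. Among the 850 genes called in Combo against iEZH2 it was found for 100 (11.8%). That comparison is part of the difference, so choosing genes by it favours such values. The median half-width of the unadjusted 95% interval of the difference among the 850 genes was 0.459 on the log2 scale. After adjustment over all genes larger differences also went uncalled, such as 0.78 for DLX5 (adjusted p = 0.865 in the limma fit). The absence of calls therefore does not show that the 2 effects are equal. For MEIS1 the difference was -0.15 (interval -0.54 to 0.24), for HMGA2 0.23 (-0.25 to 0.72), for MEF2C -0.14 (-0.65 to 0.38), for LYZ 0.062 (-0.59 to 0.72) and for MPO -0.36 (-1.05 to 0.33). Some intervals left out 0 before adjustment over all genes. They were those of CCR2 (-1.03, interval -1.77 to -0.30), CYTL1 (1.98, interval 0.66 to 3.30), EGR1 (1.53, interval 0.31 to 2.75) and DLX5 (0.78, interval 0.34 to 1.23) among others, and none passed after adjustment.

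The 1 gene called in opposite directions was TRIM26, a ubiquitin ligase gene of the MHC region, with means of 259.9 in DMSO, 374.2 in iDOT1L, 426.4 in iEZH2 and 289.1 in Combo. Its log2 fold changes were 0.53 without and -0.55 with GSK126, and the difference was -1.09 (interval -1.53 to -0.64, adjusted p = 0.276). Among the other called genes with opposite signs were the pseudogene NAIPP4, whose log2 fold change of -4.69 was a larger fitted fall than that of AGXT, against 0.20 without GSK126, and RTL9 (-2.38 against 0.43). Their iEZH2 means were 26.33 and 19.47 normalised counts.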

How the data were processed

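RNA from 16 samples of Molm14 cells (4 groups of 4) was sequenced as paired reads of 150 bases. Per the submitters' processing notes, the authors used kallisto, DESeq2 and the build hg38. Tool versions were not given in the sources used here. Values deposited by the authors are on a log2 scale, with the form of DESeq2's variance-stabilised values and a shared minimum of 6.28106 for genes without reads. Inverting that form gave normalised counts and an estimate of depth. Only 62.8% to 65.7% of low values were within 0.1 of a whole read, so no count test was run. Genes with more than 1 normalised count in at least 4 samples were tested with limma 3.58.1 (R 4.3.3; trend, robust) on log2(normalised count + 1), with the 4 group means fitted over all 16 samples (12 residual degrees of freedom) and p adjusted by Benjamini-Hochberg over 22331 genes, after a test on simulated data. A fold change on this scale understates that of low genes. Of 22445 identifiers, 20784 matched GENCODE 29. Same-numbered iDOT1L and DMSO samples deviated together (r 0.172 to 0.485) and were counted as paired. Those of iEZH2 and Combo (0.055 to 0.458) were not, which does not show that they are unpaired. The main fit used no block for either comparison, so its calls of iDOT1L against DMSO leave that pairing out.

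Named genes were 42 fixed genes, the 12 largest rises and falls among called coding genes with separate groups and a mean of at least 20, and up to 4 members of lists with 3 or more calls. Other list members were named after their values were seen. Members and lists were chosen with earlier results of these data known. A gene is uncertain where over 20% of its 31-base words recur in other GENCODE genes. The values of some members of the gene lists are not reported here.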

Additional observations from a re-analysis of the deposited data

Results flagged for a closer look

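In 128 groups of 4 samples checked over 64 genes, 9 held a sample whose distance from the other 3 exceeded Dixon's 95% limit, and chance gives about 1 in 20 groups. In normalised counts, the sample Combo 1 stood low for DOT1L (4235, the others 6328 to 6650) and high for FLT3 (3988, the others 3240 to 3339). Combo 2 stood high for CDK6 (7361, the others 4764 to 4938) and for CYTL1 (66.73, the others 35.52 to 36.71), and Combo 4 low for BHLHE22 (25.41, the others 48.28 to 49.3). The sample iEZH2 1 stood low for EZH2 (1842, the others 2386 to 2445). The sample iEZH2 4 stood high for MPO (2288, the others 871.7 to 941.1), LYZ (6541, the others 3418 to 3698) and CLEC12B (11.92, the others 1.101 to 1.59).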

How the results depend on the processing

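The 850 genes called in Combo against iEZH2 became 2136 with a replicate block, all 850 among them. Whether the replicate numbers pair these samples is not settled. Deviations of same-numbered samples correlated at 0.055 to 0.458, and 2 of 4 Combo samples correlated best with the iEZH2 sample of their own number. With that block 966 genes (45.2%) were higher and 1170 lower, and HOXA9 (adjusted p = 0.0237), HOXA10 (0.0324), CDK6 (0.000581), ITGAM (0.000246), INSIG1 (0.000909), IRF8 (0.0224), DUSP6 (0.0213), SPI1 (0.04) and JUNB (0.048) were among the named genes that then passed. Sample weights gave 1462, and a fit of only the groups compared gave 511. Leaving out 1 library gave 493 (without iEZH2 3) to 1349 (without iEZH2 4). The 303 genes changed at least 2-fold became 74 on the deposited log2 values, where fold changes of low genes are compressed, and 216 to 469 with 1 library left out. The 1396 genes called in iDOT1L against DMSO became 2729 with a replicate block and 2301 with sample weights, and 915 to 1279 with 1 library left out. The difference of the 2 effects called 0 genes, or 1 without trend and robust fitting and 0 to 1 with 1 library left out. The cause of these moves was not tested. Over the named genes, leaving out 1 library kept 760 verdicts, ended 115 calls and added 5; the other alternatives kept 1136, ended 57 and added 15, and none reversed a direction. Genes under about 10 normalised counts rest on few reads.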

Other observations

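Several of the lowest p-values belonged to genes outside the lists, named here after their values were seen. Among transcription factor genes that fell, DACH1 went from a mean of 4324 in iEZH2 to 1519 in Combo (log2 fold change -1.47), FOXD1 from 1353 to 475 (-1.53), NR2F1 from 1449 to 563.3 (-1.32), HMX3 from 1526 to 795.4 (-0.92) and SHOX2 from 717.6 to 326.3 (-1.11). In the same comparison NR2F2, the closest relative of NR2F1, rose (log2 fold change 3.02). SOCS2, a feedback inhibitor of cytokine signalling, fell from 4793 to 2103 (-1.17), FAM20C, a secretory-pathway kinase, from 823.9 to 282.7 (-1.50), and PTK2, the focal adhesion kinase, from 1132 to 479.3 (-1.24). Among genes that rose, MS4A3, a marker of granulocyte and monocyte progenitors, went from 68.45 to 334.3 (2.28), RGS18, a regulator of G protein signalling, from 209.8 to 657.3 (1.74), PSTPIP1 from 115.5 to 386.6 (1.78), TNFSF13B, the B cell activating factor BAFF, from 1933 to 3645 (0.93) and CAT, the catalase gene, from 2363 to 4341 (0.90). Apart from NR2F2 (adjusted p = 0.00104), one of the 12 largest rises, each had an adjusted p of at most 0.000119 in the limma fit.

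The 13 mitochondrially encoded mRNAs all had estimates above 0 in Combo against iEZH2, with a median of 0.29, and 0 passed the test in the limma fit (3 at an unadjusted p under 0.05). The 20 aminoacyl-tRNA synthetase genes held 0 calls there too (2 at an unadjusted p under 0.05), with a median of -0.14.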
